A study of Mus musculus with 2 samples.

Results

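The interleukin 1 receptor family cluster of the mouse lies on chromosome 1 and was taken here as mm9 positions 40100001 to 40700000. These 600 kb were cut into 600 bins of 1 kb, of which 566 held a read in at least 1 library, out of 2246042 such covered bins in the genome. In order along the chromosome the cluster holds Il1r2 (near 40.13 Mb), Il1r1 (near 40.28 Mb), Il1rl2 (near 40.38 Mb), Il1rl1 (40486001 to 40522000), Il18r1 (40522001 to 40558000) and Il18rap (near 40.57 Mb). The members were chosen by position, not by a measured value. Positions written as "near" are approximate, and that of Il1r2 may be off by more than 10 kb: it lies 356 kb from the Il1rl1 position, whereas the RefSeq starts of these genes on another build (GRCm38.p6) lie 343.5 kb apart. No peak can therefore be placed on or off the start sites of these 4 genes.

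Chromatin immunoprecipitation and sequencing (ChIP-seq) had been performed on Th2 cells, with 1 library for acetylated histone H3 lysines (H3KAc, a mark of active promoters and enhancers) and 1 library for polyclonal rabbit IgG, the non-specific background. Both libraries came from the same kind of cell: CD4+CD62L+ spleen cells of C57BL/6 mice, activated with antibodies to CD3 and CD28 for 5 days under IL-4 (10 ng/ml) and an antibody to interferon gamma (2 µg/ml), then rested for 3 days. The culture is a model of Th2 cells made in a dish, and how many mice were pooled is not given in the sources used here. No untreated cells and no other helper T cell subset were compared. The question was where in the cluster, and how far, H3KAc stood above IgG.

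Receptors of this family bind cytokines of the interleukin 1 group and, with an accessory chain, signal through an intracellular TIR domain to NF-kappaB. Il1r1 encodes the signalling receptor for IL-1. Il1r2 encodes a decoy receptor that binds IL-1 and lacks the TIR domain, and Il1rl2 encodes the receptor for IL-36. Il1rl1 encodes ST2, the receptor for IL-33, which is known as a surface marker of Th2 cells, mast cells and group 2 innate lymphoid cells. Il18r1 and Il18rap encode the binding and accessory chains of the IL-18 receptor, which is best known on Th1 and natural killer cells.

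The letters around the annotated starts are shown first because they are the places where promoter acetylation would be looked for. RefSeq windows of 250 bases before to 50 bases after a start (build GRCm38.p6, all on the plus strand) were found for all 6 genes, 10 windows in all. Capitals mark the GATA motif recognised by GATA3, the master regulator of Th2 cells (the letters AGATAA, the letters AGATAG, the letters TGATAA or the letters TGATAG, on either strand), and the spaced palindrome TTCNNNNGAA bound by STAT6, the factor downstream of IL-4. The marked matches of the 2 motifs do not overlap in these windows. The first listed start of each gene is given, with the second one of Il1r1 and Il1rl1, and 2 further Il18r1 starts close by are left out.
Il1r2, chr1:40085843-40086142, plus strand: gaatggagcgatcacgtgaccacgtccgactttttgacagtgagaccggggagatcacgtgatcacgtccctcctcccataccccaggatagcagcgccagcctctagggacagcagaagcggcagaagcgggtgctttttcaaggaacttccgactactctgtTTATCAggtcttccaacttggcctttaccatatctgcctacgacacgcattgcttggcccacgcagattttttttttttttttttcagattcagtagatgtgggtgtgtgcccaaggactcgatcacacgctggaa
Il1r1 first start, chr1:40224830-40225129, plus strand: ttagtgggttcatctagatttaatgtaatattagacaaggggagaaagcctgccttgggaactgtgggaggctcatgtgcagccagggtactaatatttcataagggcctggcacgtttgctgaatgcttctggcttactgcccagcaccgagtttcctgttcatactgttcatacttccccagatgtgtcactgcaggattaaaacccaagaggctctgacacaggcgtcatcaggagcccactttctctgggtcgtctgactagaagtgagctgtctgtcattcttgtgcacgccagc
Il1r1 second start, chr1:40266336-40266635, plus strand: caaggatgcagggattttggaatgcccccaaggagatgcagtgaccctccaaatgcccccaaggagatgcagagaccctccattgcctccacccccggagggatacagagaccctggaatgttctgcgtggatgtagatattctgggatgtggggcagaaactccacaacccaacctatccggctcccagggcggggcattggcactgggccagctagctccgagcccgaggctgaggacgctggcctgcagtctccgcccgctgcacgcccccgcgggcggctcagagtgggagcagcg
Il1rl2, chr1:40324339-40324638, plus strand: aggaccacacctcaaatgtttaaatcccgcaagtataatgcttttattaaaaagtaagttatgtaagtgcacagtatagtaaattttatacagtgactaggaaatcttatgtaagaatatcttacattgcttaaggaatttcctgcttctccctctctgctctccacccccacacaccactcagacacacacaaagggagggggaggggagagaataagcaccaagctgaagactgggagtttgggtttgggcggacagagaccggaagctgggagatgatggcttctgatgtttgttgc
Il1rl1 first start, chr1:40429320-40429619, plus strand: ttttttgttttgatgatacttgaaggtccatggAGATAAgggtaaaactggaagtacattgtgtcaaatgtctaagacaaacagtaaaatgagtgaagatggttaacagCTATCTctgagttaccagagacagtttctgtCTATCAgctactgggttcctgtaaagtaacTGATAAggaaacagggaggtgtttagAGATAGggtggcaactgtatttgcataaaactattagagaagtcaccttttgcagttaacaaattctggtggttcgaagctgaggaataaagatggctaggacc
Il1rl1 second start, chr1:40439379-40439678, plus strand: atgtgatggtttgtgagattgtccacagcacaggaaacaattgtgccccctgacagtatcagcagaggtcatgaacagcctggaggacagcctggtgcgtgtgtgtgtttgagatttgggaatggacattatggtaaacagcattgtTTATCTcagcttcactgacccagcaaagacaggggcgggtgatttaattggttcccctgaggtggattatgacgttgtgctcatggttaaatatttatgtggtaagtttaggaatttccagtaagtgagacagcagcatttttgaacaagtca
Il18r1 first start, chr1:40465302-40465601, plus strand: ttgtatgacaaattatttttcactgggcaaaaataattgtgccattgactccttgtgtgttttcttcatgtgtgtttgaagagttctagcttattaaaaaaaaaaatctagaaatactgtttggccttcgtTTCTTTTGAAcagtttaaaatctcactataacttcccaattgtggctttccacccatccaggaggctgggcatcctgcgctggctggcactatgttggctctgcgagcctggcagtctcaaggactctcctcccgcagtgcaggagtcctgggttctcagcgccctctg
Il18rap, chr1:40515112-40515411, plus strand: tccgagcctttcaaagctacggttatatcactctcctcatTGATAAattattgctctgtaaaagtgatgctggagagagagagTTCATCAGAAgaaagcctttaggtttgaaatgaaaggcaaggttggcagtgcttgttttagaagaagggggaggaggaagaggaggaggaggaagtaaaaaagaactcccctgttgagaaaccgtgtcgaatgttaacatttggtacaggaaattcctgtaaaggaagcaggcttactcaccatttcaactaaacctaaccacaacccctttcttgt

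The first Il1rl1 window held 5 GATA matches, a number reached in 0.0548% of the 32851 promoter windows of the mouse table. At least 1 was held by 29.8% of all windows. These shares were taken without regard to base composition, and the first Il1rl1 window had 38.7% G and C. The second Il1rl1 window, whose start lies 10059 bp further along, held 1 match. Il1r2 and Il18rap also held 1 GATA match each, and the windows of Il1r1, Il1rl2 and Il18r1 held none. The STAT6 letters were found in the first Il18r1 window and in that of Il18rap, against 6.95% of all windows. The Il1r2 window was rich in CpG, with 16 of them, a number reached in 33% of windows, whereas the first Il1rl1 window held 1. A match of letters is a description and does not show binding. The windows are on GRCm38 and were not carried over to mm9, so none of them is laid on the reads below.

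The H3KAc library held 21845451 reads at 19711169 distinct positions, and the IgG library 7626703 reads at 1897666 distinct positions. Each distinct position was read 1.11 times in H3KAc and 4.02 times in IgG, and inside the cluster 1.10 and 4.30 times. Levels are given per 1000000 distinct positions (RPM), so 1 read weighs 0.0507 RPM in H3KAc and 0.527 RPM in IgG. For a bin with no IgG read, a limit of 3 reads (one-sided, unlike the intervals below) allows a level of up to 1.58 RPM. With 1 library per antibody there is no replicate check and no test. The 95% intervals given below are exact (Poisson for a level, conditional binomial for a ratio) and cover counting error in these libraries only.

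Over its whole length the cluster was close to the genome in both libraries. It held 5586 H3KAc and 470 IgG positions. These are 0.501 RPM per covered kb in H3KAc (0.488 to 0.514) and 0.438 RPM per covered kb in IgG (0.399 to 0.479), a ratio of 1.14 (1.04 to 1.26). The genome-wide mean was 0.445 RPM per covered kb in both libraries, which follows from scaling each to its own total. Among 3026 windows of 600 kb that tile the genome, each with at least 500 covered bins, 55.2% had a lower H3KAc level than the cluster. Its highest bin, with 78 reads, exceeded the highest bin of only 36.8% of those windows. So the mean level was ordinary and the peak height lay below the median of 102 reads.

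**Figure D1:**
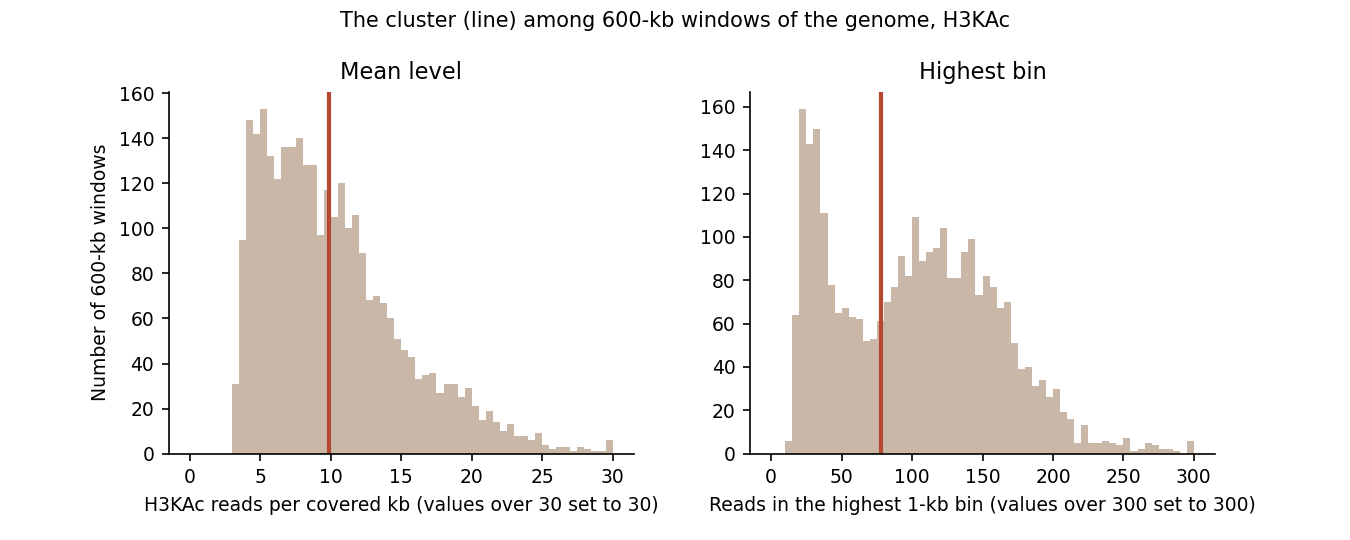
Numbers of 600-kb windows of the genome (vertical axes) by their mean H3KAc level in reads per covered kb (left) and by the reads of their highest 1-kb bin (right). The line marks the cluster, at 9.87 reads per covered kb and 78 reads, against window medians of 9.10 and 102.

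The neighbouring chromatin differed from the cluster by more than counting error. The 600 kb before it (39500001 to 40100000) had 0.782 RPM per covered kb in H3KAc (0.766 to 0.798), and the cluster had 0.640 times that level (0.619 to 0.662). The 600 kb after it (40700001 to 41300000) had 0.372 RPM per covered kb (0.361 to 0.383), and the cluster had 1.35 times that level (1.29 to 1.40). IgG moved with these differences, at 0.618 (0.551 to 0.694) and 1.30 times (1.13 to 1.496) the flanking levels. The ratio of H3KAc to IgG was accordingly similar in the cluster (1.14), before it (1.11, 1.03 to 1.19) and after it (1.11, 0.995 to 1.24), with overlapping intervals. In the RefSeq gene order the protein-coding neighbours are Map4k4 before Il1r2 and Slc9a4 after Il18rap. This is an order only: they were not placed on mm9, so either may lie within the 600 kb of the cluster.

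Per covered kb, H3KAc was highest in the 30 kb before the Il1r2 position and lowest over Il1rl1. Per kb with uncovered bins included, the stretch between Il18r1 and Il18rap was lower still, with 5.92 H3KAc reads per kb against 6.42 over Il1rl1. The cluster was divided at the gene positions into 8 segments, each named by the gene at its start. The 30 kb before the Il1r2 position had 1.01 RPM per covered kb in H3KAc (0.924 to 1.09), which is 2.26 times the genome-wide mean, and 0.546 in IgG (0.366 to 0.784). Their ratio of 1.84 (1.27 to 2.78) was the highest of the 8 segments, and its interval excluded 1. The Il1r2 segment followed with 0.574 RPM per covered kb in H3KAc (0.546 to 0.604) and 0.469 in IgG (0.389 to 0.560), a ratio of 1.23 (1.02 to 1.49). The intervals of the ratio included 1 in the other 6 segments.

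The Il1r1 segment had 0.485 RPM per covered kb in H3KAc (0.454 to 0.517) and 0.527 in IgG (0.428 to 0.642). The Il1rl2 segment was alike in H3KAc, with 0.483 (0.453 to 0.514), and had 0.444 in IgG (0.355 to 0.549). The Il18rap segment, which runs to the end of the cluster, had 0.404 in H3KAc (0.379 to 0.430) and 0.340 in IgG (0.2696 to 0.423). Il18r1 had 0.402 in H3KAc (0.356 to 0.451) and 0.439 in IgG (0.296 to 0.627). Il1rl1 had 0.355 in H3KAc (0.311 to 0.404) and 0.272 in IgG (0.158 to 0.435). The 12 kb between Il18r1 and Il18rap, of which 8 kb were covered, had 0.450 in H3KAc (0.352 to 0.568) and 0.527 in IgG (0.228 to 1.04).

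Ordered by H3KAc level, the segments named after the members ran Il1r2, Il1r1, Il1rl2, Il18rap, Il18r1 and Il1rl1. These are unlike intervals. Those of Il1rl1 and Il18r1 are the genes themselves (36 kb each), whereas the others run on to the next gene position or the cluster end (100 to 150 kb). The order is therefore one of segments, not of genes. The Il1r2 segment exceeded that of Il1r1 1.18-fold (1.09 to 1.29), and the Il1rl2 segment exceeded that of Il18rap 1.195-fold (1.09 to 1.31). The other neighbours in this order could not be separated by counting error: Il1r1 and Il1rl2 had a ratio of 1.004 (0.917 to 1.10), Il18rap and Il18r1 one of 1.01 (0.881 to 1.15), and Il18r1 and Il1rl1 one of 1.13 (0.947 to 1.35). Of these pairs none differed in IgG beyond its counting error, with intervals that ran from 0.503 to 3.13. With H3KAc thinned to the number of IgG positions and covered kb counted anew, the order was not kept: Il18rap (0.597 RPM per covered kb) and Il1rl2 (0.662) lay below Il1rl1 (0.721).

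**Figure D2:**
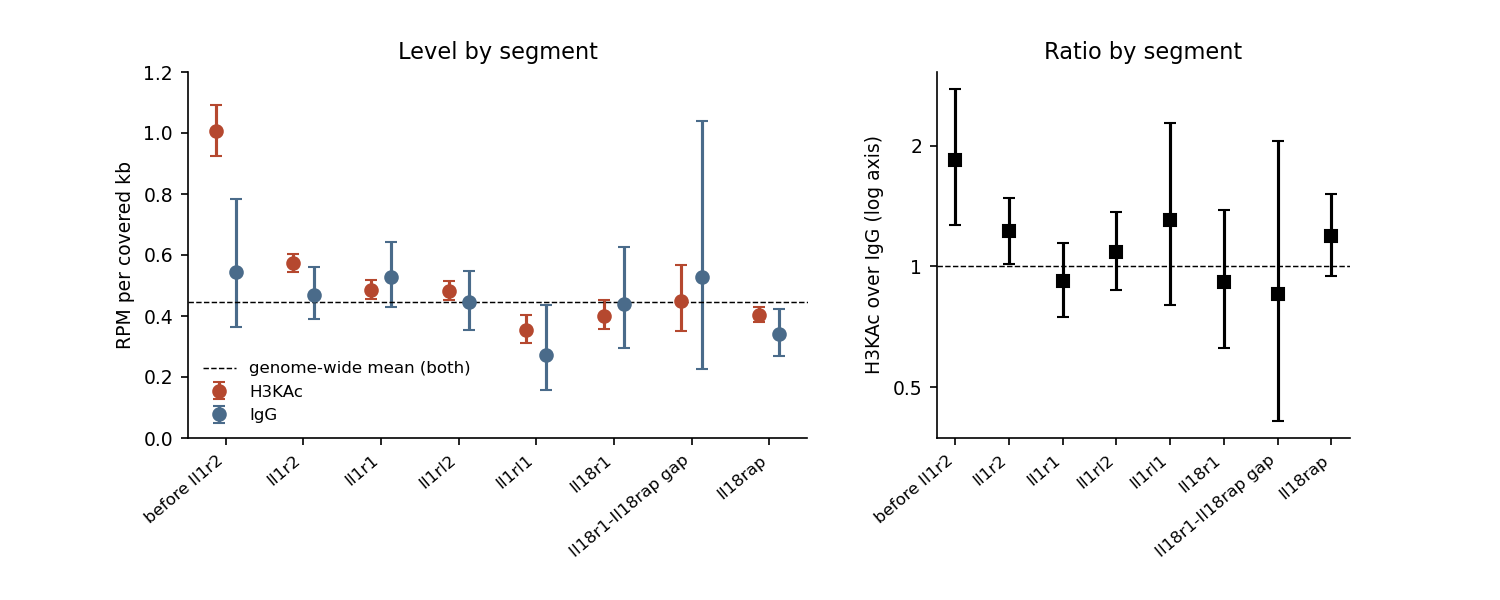
Left, H3KAc and IgG levels in RPM per covered kb (vertical axis) for the 8 segments of the cluster (horizontal axis), with exact Poisson 95% intervals and the genome-wide mean as a dashed line. Right, the ratio of H3KAc to IgG on a log axis with its exact 95% interval, which lies above 1 for the segment before Il1r2 (1.84) and for Il1r2 (1.23).

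Il1rl1 and Il18r1 are neighbours that meet at 40.522 Mb, and together their 72 kb carried 0.379 RPM per covered kb in H3KAc (0.347 to 0.414) and 0.359 in IgG (0.264 to 0.477), a ratio of 1.06 (0.783 to 1.46). Set against the 180 kb before the Il1r1 position, their H3KAc level was 0.586 times as high (0.531 to 0.645). In IgG the same comparison gave 0.745 (0.525 to 1.04). Both intervals overlap, and the difference between them was not tested. For Il1rl1 alone over the Il1r2 segment, H3KAc was 0.619 times as high (0.536 to 0.711) and IgG 0.579 times (0.327 to 0.966), so both libraries were lower over Il1rl1 by more than counting error.

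The gene for the IL-33 receptor had H3KAc below the genome-wide mean per covered kb, but its median bin was not below the genome-wide median bin. In the 33 covered bins of Il1rl1, H3KAc ranged from 1 to 14 reads with a median of 7, against a genome-wide median of 6. The highest Il1rl1 bin, from 40501001 to 40502000, held 14 H3KAc reads (0.710 RPM, 0.388 to 1.19) and no IgG read. As many reads or more were found in 18.8% of covered bins of the genome. The bin at the beginning of the gene, from 40486001 to 40487000, held 7 H3KAc and 3 IgG reads. Only 9 of the 33 bins held an IgG read, 17 reads in all, so the ratio of 1.31 has a wide interval (0.799 to 2.29). This interval includes 1 and reaches up to 2.29-fold, for counting error alone.

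Il18r1, which encodes the IL-18 binding chain, carried its highest bin at its beginning. The bin from 40522001 to 40523000 held 28 H3KAc reads (1.42 RPM, 0.944 to 2.05), a level reached by 3.63% of covered bins, and the next bin held 16. IgG was high there as well: the same bin held 7 IgG reads (3.69 RPM), a number reached by 0.972% of covered bins, and the ratio was 0.385 (0.164 to 1.04). H3KAc thus did not stand above the IgG of the same bin, and the part of the background in its H3KAc level was not tested. Elsewhere in Il18r1 the bin starting at 40542001 had 25 reads in H3KAc, with none in IgG. The median over the 36 bins of the gene was 6.5 reads.

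For the accessory chain gene Il18rap, the highest bin was that from 40579001 to 40580000, within 10 kb of the approximate gene position. It held 34 H3KAc reads (1.73 RPM, 1.195 to 2.41) and 3 IgG reads, a ratio of 1.09 (0.343 to 5.55). Directly ahead of it, 3 bins had no read in either library. Around the approximate Il18rap position itself (5 kb to each side) H3KAc was low, with 0.184 RPM per covered kb (0.123 to 0.264) in 8 covered bins. This is 0.413 times the genome-wide mean. IgG held 4 reads there, 0.2635 RPM per covered kb, and the ratio was 0.698 (0.245 to 2.73).

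At single bins, none of the 566 covered bins was enriched under a rule that asked for at least 5 reads in both libraries together and a lower bound of the ratio above 2. Genome-wide 0.0524% of covered bins met it, and 2279 of the 3026 windows of 600 kb held none. The bin with the most H3KAc reads in the cluster, from 40142001 to 40143000 in the Il1r2 segment, stood just outside with 78 reads, no IgG read and a lower bound of 1.99. At this IgG depth no bin with 78 or fewer H3KAc reads could meet the rule, even without an IgG read. The absence of enriched bins therefore cannot tell whether bins of the cluster were enriched. A lower bound above 1 was reached by 3 bins (0.53%), against 0.409% of bins genome-wide. These were the bin just given, the adjoining bin from 40143001 to 40144000 (41 H3KAc reads and no IgG read, lower bound 1.02) and the bin from 40115001 to 40116000 (62 H3KAc reads and 1 IgG read, ratio 5.97, 1.03 to 240). All 3 lie before the Il1r1 position. No bin of the cluster had an upper bound below 0.5, against 0.395% genome-wide.

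When IgG was taken from the bin and its 5 neighbours on either side (11 bins), to lessen the limit set by single IgG reads, 11 bins of the cluster (1.94%) had a lower bound above 2, against 1.35% genome-wide. Of these, 7 lay before the Il1r1 position. The strongest was again the bin from 40142001 to 40143000, with a ratio of 16.5 (6.79 to 52.3), followed in lower bound by its neighbour from 40141001 to 40142000 with 10.2 (4.07 to 32.7) and by the bin from 40241001 to 40242000 with 8.34 (3.98 to 20.2). Further along, 1 bin in Il1rl1 (40502001 to 40503000) and 3 in the Il18rap segment met this rule. The Il1rl1 bin held 13 H3KAc reads, a level reached by 21.3% of covered bins, and a single IgG read in the 11 kb around it. Its call (13.8, 2.07 to 585) therefore rests on little IgG rather than on a high H3KAc level.

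A second description used H3KAc alone. A bin counted as part of an island when the lower bound of its H3KAc reads exceeded 2 times the genome-wide mean of 8.78 reads, which took 27 reads, and island bins that touched or were separated by a single bin were merged. The cluster held 17 island bins (3.00% of its covered bins), against 4.02% genome-wide. Among the 600-kb windows, 58.4% held fewer island bins, with a median of 12 per window, so the cluster lay below the pooled share and above the median window. They formed 9 islands, of which 4 began before the Il1r1 position and held 11 of the 17 bins. Il1rl1 held no island bin. Of the 10 bins with the most H3KAc reads, 9 lay before the Il1r1 position, and the other was the Il18rap bin described above.

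**Figure D3:**
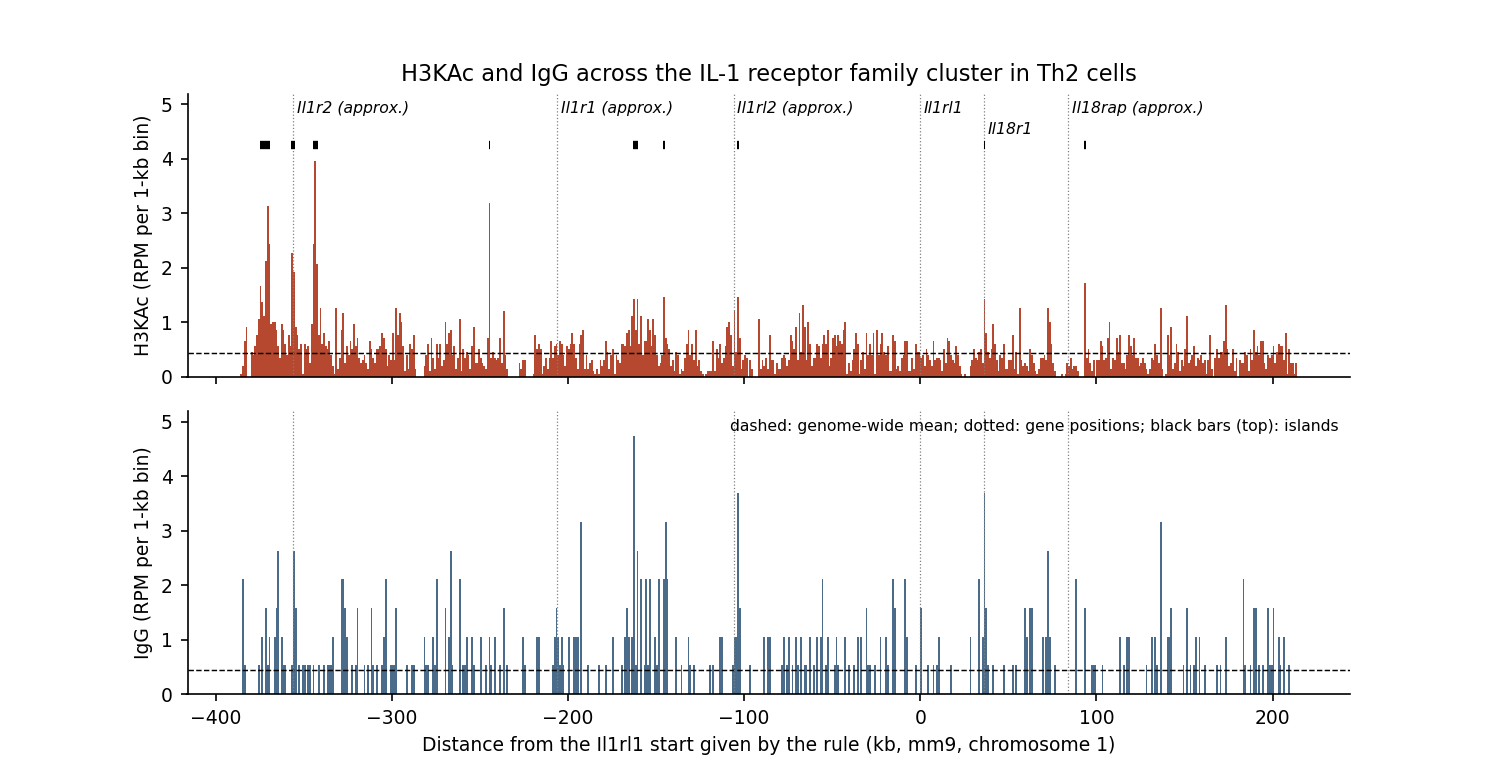
H3KAc (top) and IgG (bottom) in RPM for each of the 600 bins of 1 kb, by distance from the Il1rl1 start in kb. Dashed lines give the genome-wide mean of 0.445 RPM, dotted lines the gene positions and black bars the 9 islands, and the tallest H3KAc bins (3.96, 3.20 and 3.15 RPM) stand left of Il1r1.

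The 3-kb island from 40141001 to 40144000, beyond the approximate Il1r2 position, was the clearest of the cluster. Its middle bin starts 344 kb before the Il1rl1 position, and the RefSeq starts of Il1r2 and Il1rl1 on GRCm38.p6 lie 343.5 kb apart. The starts were not carried over to mm9, so whether this island lies at the Il1r2 start was not tested. Its 3 bins held 48, 78 and 41 H3KAc reads, together 8.47 RPM (7.24 to 9.86), and 1 IgG read in all (0.527 RPM). The ratio was 16.1 (2.85 to 639). On the plus strand it had 79 reads and on the minus strand 88. At 100 bp the reads peaked between 40142401 and 40142500 with 14 reads, and a second maximum of 13 reads lay 0.9 kb before it, with 3 to 5 reads per 100 bp over most of the interval between them.

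The widest island, of 6 kb from 40111001 to 40117000, lay ahead of the Il1r2 position. It held 234 H3KAc reads, 11.9 RPM (10.4 to 13.5), and 8 IgG reads, 4.22 RPM, a ratio of 2.82 (1.41 to 6.60). Its highest bins were those starting at 40115001 (62 H3KAc and 1 IgG reads), 40116001 (48 and 2) and 40114001 (42 and 3). Its first 3 bins were lower, with 33, 27 and 22 H3KAc reads. The 2-kb island from 40129001 to 40131000 covered the approximate Il1r2 position. It held 83 H3KAc and 6 IgG reads, a ratio of 1.33 (0.587 to 3.73), with 45 and 38 H3KAc reads in its bins. With all deposited reads counted, the ratio of this island was 0.544, and its 6 IgG positions had been read 61 times. The plus strand alone gave 3.88 and the minus strand 0.824, so the direction depended on the setting. The same counting of all reads gave 4.59 for the 6-kb island.

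The island from 40241001 to 40242000, in the later part of the Il1r2 segment, was narrow. It held 63 H3KAc reads (3.20 RPM, 2.46 to 4.09) and 2 IgG reads, a ratio of 3.03 (0.805 to 25.6), and 4.83 when repeats were kept. Its level at 300 bp stayed above 0.5 of the maximum over 500 bp, as in the 3-kb island, against 1000 bp in the 6-kb island.

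**Figure D4:**
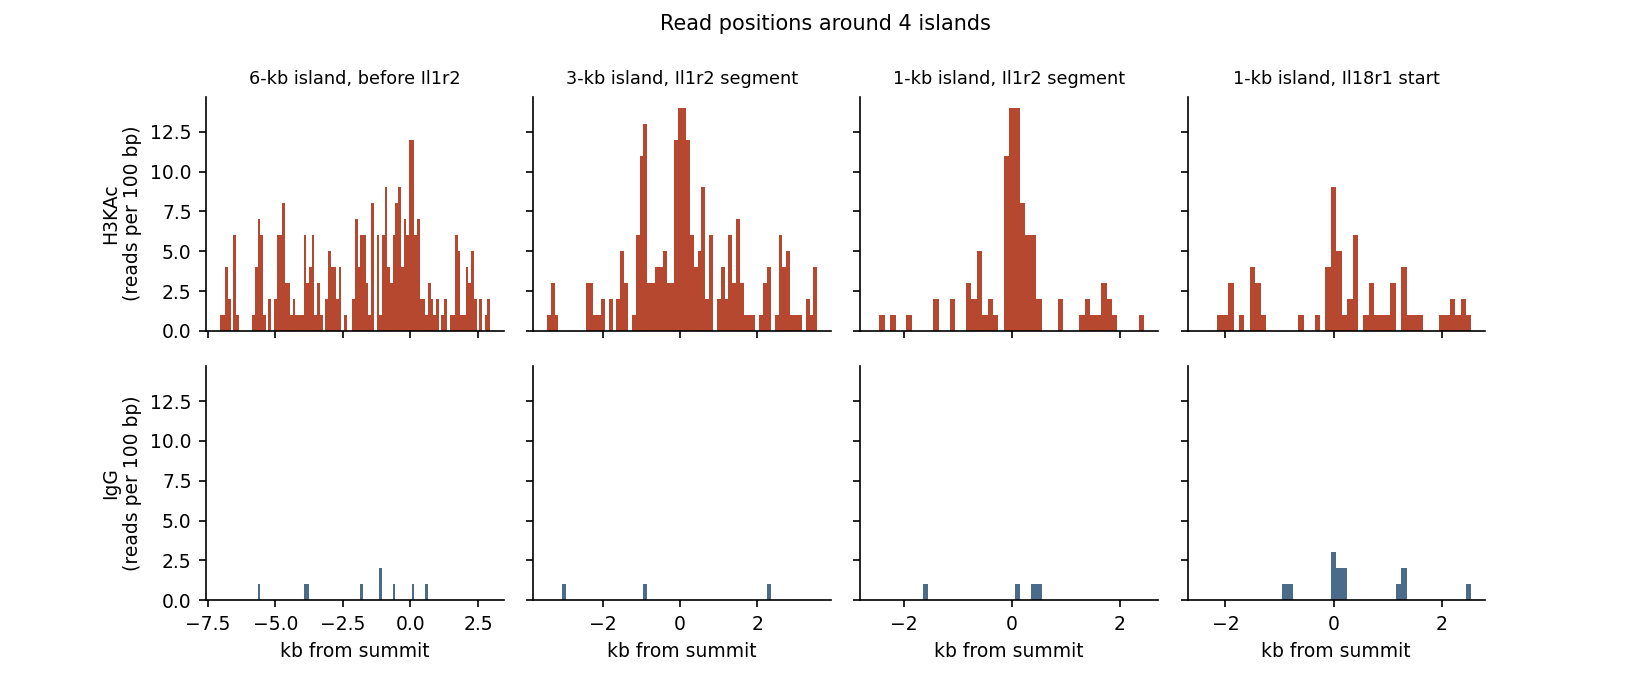
Reads per 100 bp (vertical axes) in H3KAc (top) and IgG (bottom) around 4 islands, by distance from the H3KAc summit in kb. The H3KAc summits hold 12, 14, 14 and 9 reads from left to right, and only the island at the Il18r1 start has its IgG reads, 3 at most per 100 bp, gathered at the summit.

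Islands beyond the Il1r1 position were lower and shared their places with IgG. The RefSeq starts of Il1r1 lie 41506 bp apart on GRCm38.p6, so an island beyond this approximate position may still lie at an Il1r1 start. The island from 40323001 to 40326000, in the Il1r1 segment, held 73 H3KAc reads and 15 IgG reads, a ratio of 0.469 (0.266 to 0.880). Its first bin had the most IgG reads of the cluster, 9 (4.74 RPM) beside 28 H3KAc reads. The Il1r1 bin starting at 40340001 had 29 H3KAc and 4 IgG reads, with a ratio of 0.698 (0.245 to 2.73). Counting every deposited read gave this bin a ratio of 1.36. The Il1rl2 bin starting at 40382001, close to the approximate position of that gene, had 29 H3KAc and 7 IgG reads and a ratio of 0.399 (0.171 to 1.08). With the Il18r1 start, 4 of the 5 islands beyond the Il1r1 position had a ratio below 1. Of these 4, 3 (all but that from 40340001) stayed below 1 under each alternative that took IgG from the island itself. With IgG over 11 bins they did not. The bin from 40382001 then had a ratio of 2.05 (1.06 to 4.11) and that from 40522001 one of 1.65 (0.880 to 3.16). The bins from 40323001 and 40325001 each had 1.06 (0.604 to 1.86). The direction thus depended on the width over which IgG was counted.

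Over the 17 island bins together IgG was 1.61 RPM per kb, against 0.401 RPM per covered kb in the other bins of the cluster, 4.02 times as high (2.95 to 5.37). It was uneven among the islands. IgG ran from 0.176 to 1.58 RPM per kb in those before the Il1r1 position and from 1.58 to 3.69 in those beyond it. The bins had been picked by their H3KAc reads, and IgG took no part in that choice. H3KAc over IgG was 1.30 (0.979 to 1.76) in the island bins, where the picking raises it, and 1.125 (1.02 to 1.25) in the others. Of the 9 islands, 2 had a ratio interval above 1, the 6-kb and the 3-kb island at the Il1r2 end, and 1 had an interval below 1. How much of the H3KAc level of the remaining islands is background was not tested.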

How the data were processed

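ChIP-seq reads of 1 H3KAc and 1 IgG library of Th2 cells were analysed. The authors used Bowtie and the mm9 build, per the submitters' processing notes. The Bowtie version, the handling of multiple alignments and filters were not given in the sources used here. Each deposited file lists the start, end and strand of each aligned read (35 bases), without normalization.

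Reads sharing a 5' end and strand were collapsed to 1 position, moved 100 bp along their strand and counted in 1-kb bins. RPM, exact intervals, the calls of enriched bins and islands, and 600-kb windows were computed genome-wide. Both calling rules were tested on simulated data. Gene positions came from the definition of the cluster on mm9. The gene and promoter tables are on GRCm38, so no position of theirs was used on the reads. Only distances between their starts were compared. The rule for named items took each member's segment and highest bin, bins called enriched (none), the 10 bins with the most H3KAc reads, islands of 2 kb or wider, and promoters of members whose segment holds an island. Other bins and islands and the Il1rl1 promoters were named after their values were seen. The members and settings were chosen with earlier results of these data known. Whether the cells carried other Th2 markers was not analysed here. Calculations ran in Python 3.11.15 with scipy 1.17.1 for intervals, numpy 2.4.6 for counting, pandas 2.3.3 for tables and, for figures, matplotlib 3.10.9.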

Additional observations from a re-analysis of the deposited data

How the results depend on the processing

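The ratio over the cluster stayed between 1.06 and 1.18 with all deposited reads, reads not moved, either strand alone, thinned H3KAc and IgG scaled by background bins. The count of enriched bins, 0, became 18 with all deposited reads, 1 with reads not moved, 3 with a lower bound above 1 and 11 with IgG over 11 bins. It stayed 0 with either strand alone, thinned H3KAc, background scaling, a lower bound above 4 and 500-bp bins. Most of these settings could not have raised it. A lower bound above 4 is stricter, single strands and 500-bp bins leave fewer reads per bin, and background scaling lowered the ratios. The 18 bins (11 of them before the Il1r1 position) stand against 1.76% of bins genome-wide, and copies of a position enter them as independent. The 1 bin with reads not moved was that from 40142001, against 0.0538% of bins genome-wide. The 9 islands (17 bins) became 5 (10 bins) with plus-strand reads and 2 (2 bins) with thinned H3KAc. They became 4 (9 bins) with 3 times the mean and 44 (86 bins) with 1 times the mean. Genome-wide the share of island bins moved as well, from 4.02% to 2.77%, 1.12%, 1.55% and 14.5% in the same order. In the first 3 of these settings every island bin of the cluster lay before the Il1r1 position. The level of Il1rl1 and Il18r1 over that before Il1r1, 0.586, became 0.882 with thinned H3KAc, where covered kb were counted anew and bins left without reads dropped out. With the covered kb of the full depth, an alternative chosen after seeing the data, thinning gave 0.644 (0.469 to 0.871), and with uncovered bins included the value was 0.616. Of 190 further values of segments, bins and islands under the alternatives, 23 left their interval, 14 of them with thinned H3KAc. No paired analysis was possible because each antibody has 1 library. IgG depth, 0.8304 reads per covered kb of the cluster, limits every ratio.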
